A study of Mus musculus with 12 samples.

Results

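Cholesterol balance in perigonadal white adipose tissue, the fat pad around the gonads, was followed through 30 genes that make sterols, sense them and send them out of the cell. The genes were selected by symbol. They comprise 4 genes of the SREBP-2 control system, 9 genes that lead from acetyl-CoA to isoprenoids, 11 that lead from squalene to cholesterol, the sterol carrier Stard4 and 5 genes on the side of the liver X receptors (LXR). All 30 were found among the 53379 genes in the count files, and all 30 were among the 16554 genes that passed a filter on low counts and were tested. The uptake side is represented only by Mylip, which encodes a ubiquitin ligase that marks lipoprotein receptors for degradation.

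The tissue came from C57BL/6 mice aged 9 weeks, kept on standard chow and sampled at zeitgeber time 9. The 4 groups were Cdk7 knockout mice given CL for 7 days (ko CL), Cdk7 knockout mice given saline for 7 days (ko saline), wild-type mice given CL for 7 days (wt CL) and wild-type mice given saline for 7 days (wt saline). Each group had 3 libraries, and each library pooled 250 ng of RNA from each of 2 mice, so that p-values measure the spread between pools. The knockout is described as specific to adipose tissue. The promoter that drives it is not given in the sources used here, and other cells of the fat pad would keep Cdk7. Cdk7 is the kinase subunit of TFIIH, a general factor of RNA polymerase II transcription. The labels spell CL no further, and it was taken to be the agonist of the beta-3 adrenergic receptor known by those letters. Groups were taken from the sample titles, since a separate genotype label follows the treatment and contradicts 6 of the 12 titles.

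Cdk7 was measured first as a check of the titles. It stood at 23.6, 19.5 and 18.1 CPM (gene counts after TMM scaling to 1 library total) in ko CL and 11.02, 11.7 and 11.5 CPM in ko saline, against 32.2, 30.4 and 35.4 CPM in wt CL and 29.7, 29.98 and 29.3 CPM in wt saline. Every ko library lay below every wt library (exact two-sided permutation test of 6 ko against 6 wt libraries, p = 0.00216, the smallest the 924 splits allow). Depth was 21892817 to 27985019 gene counts per library. On the first principal component, which held 40.3% of the variance, the ko CL libraries stood apart from the rest. All 15 adipocyte markers were detected in every library, as were all 18 macrophage markers. Single libraries stood apart too, wt saline replicate 1 on the second component and ko CL replicate 2 by its summed B cell markers, and counts of members are also given without both. Replicate 1 of ko CL differed most from the other libraries of its group, at a chi-square per degree of freedom of 60.26 and 40.83, against 13.65 between the other two. It had the lowest adipocyte sum and the highest macrophage sum of the group, and its 7 thermogenic markers summed to 49.2 CPM, against 149 and 165 CPM.

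Cells sense cholesterol in the membrane of the endoplasmic reticulum. When it is low, Scap carries the transcription factor SREBP-2 (gene Srebf2) to the Golgi apparatus for cleavage, and the freed factor turns on the enzymes of sterol synthesis. When it is high, the Insig proteins hold Scap back, while oxysterols activate LXR, which turns on the exporters Abca1 and Abcg1. Fat cells hold a large store of unesterified cholesterol, and macrophages handle the sterol of the lipid they take up, so both cell types use these genes.

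Most sterol synthesis genes rose under CL in wt fat, and none was called higher in ko fat. In ko, 10 of the 20 synthesis genes fell, none rose and 10 were not called, and Abcg1, Abca1, Mylip and Nr1h3 rose. Of 15 adipocyte markers, 11 also fell and none rose in ko, with a median log2 change of -0.50, beside -0.33 for the 20 synthesis genes. In wt fat, 18 of the 20 synthesis genes rose and none fell, led by Cyp51 (6.55-fold) and Mvd (4.44-fold), 2 enzymes of the pathway. Of all genes 27.5% fell under CL in ko and 19.6% rose under CL in wt. The summed level of the 20 synthesis genes was 1218 ± 214 CPM in ko CL and 1579 ± 56.5 CPM in ko saline, and 3960 ± 412 CPM in wt CL and 1522 ± 155 CPM in wt saline (SD, n = 3 each). The ko CL sums lay below those of ko saline without overlap, and the wt CL sums stood above all others.

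By edgeR's quasi-likelihood F test and Benjamini-Hochberg adjustment over all tested genes at 0.05, 12 of the 30 genes were lower and 4 higher in ko CL than in ko saline, where 27.2% of all genes were called higher and 27.5% lower. In wt fat 22 were higher and 2 lower under CL, where 19.6% of all genes were called higher and 17.1% lower. The difference between the responses, that of ko minus that of wt, was called above 0 for 4 genes and below 0 for 21, where 21.8% and 23.6% of all genes were called (45.4% in either direction). The median log2 fold change of the 30 genes under CL was -0.16 in ko and 1.17 in wt, beside -0.01 and -0.01 over all genes, and the median difference was -1.39, beside -0.03. The comparisons share libraries, so that their counts are not separate lines of evidence. Without ko CL replicate 1 the number lower in ko was 7, and with only the groups compared in the fit it was 9. Without wt saline replicate 1 and ko CL replicate 2 the counts were 6 higher and 10 lower in ko, and 21 higher and 2 lower in wt.

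**Figure D1:**
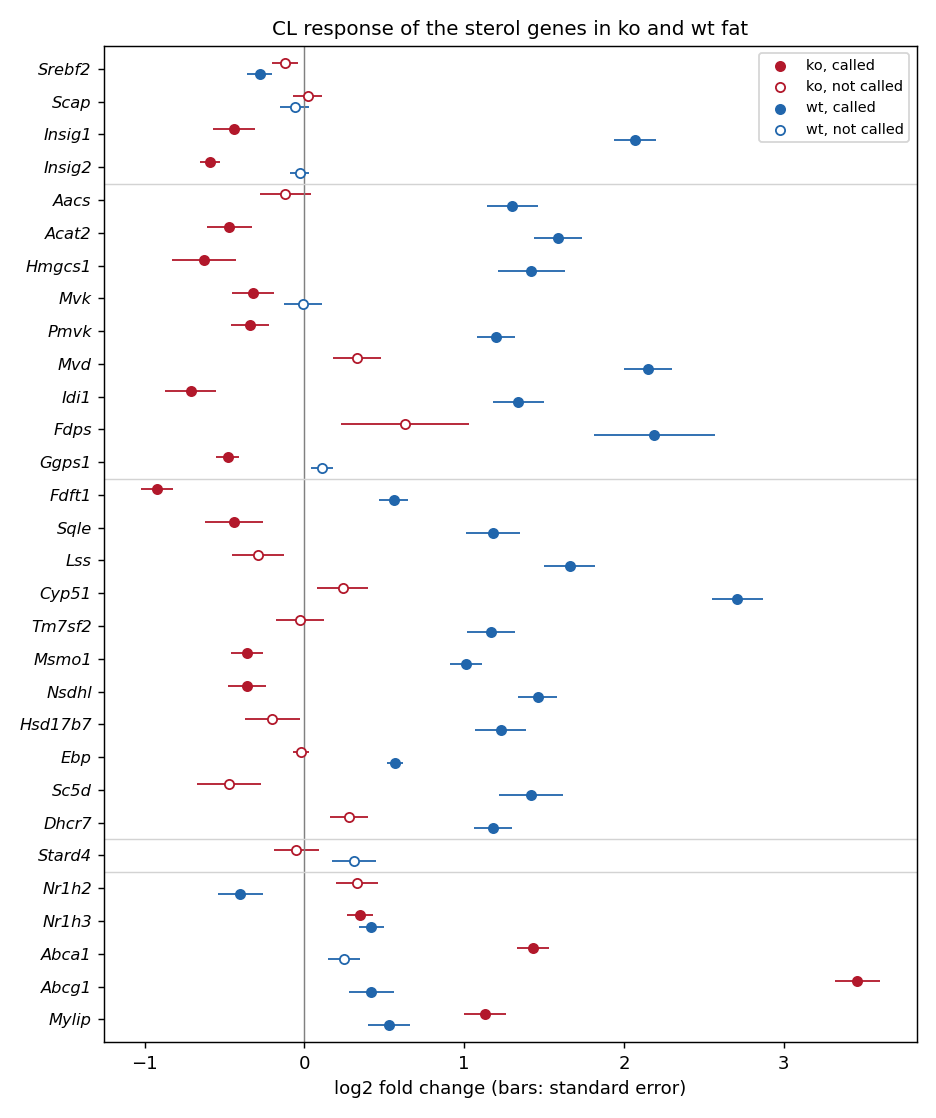
Log2 fold change of each of the 30 genes under CL against saline in ko (red) and wt (blue) fat, with bars for the standard error; filled points passed the adjusted threshold. Most synthesis genes lay below or near 0 in ko, with Cyp51 at 0.24, and above 0 in wt, with Cyp51 at 2.71, while Abcg1 was at 3.46 in ko and 0.42 in wt.

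Of the control genes, Insig1 differed most between the groups. Insig1 encodes the protein that retains Scap and is itself a target of SREBP-2 (GRCm38 chromosome 5, 28071363 to 28078662, plus strand). Insig1 stood at 86.3, 105 and 127 CPM in ko CL and 141, 126 and 165 CPM in ko saline, against 795, 865 and 915 CPM in wt CL and 189, 217 and 207 CPM in wt saline. The wt CL libraries stood far above all others, and the ko CL and ko saline libraries overlapped narrowly. By edgeR's quasi-likelihood F test and Benjamini-Hochberg adjustment, Insig1 fell by 0.44 ± 0.13 on the log2 scale under CL in ko (SE, adjusted p = 0.0116) and rose by 2.07 ± 0.13 in wt (adjusted p = 7.33e-07). The difference between these responses was -2.51 ± 0.19 (adjusted p = 4.93e-07).

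Insig2, the second anchor of Scap, showed another pattern. It had 50.8, 51.1 and 51.4 CPM in ko CL and 79.8, 75.8 and 75.7 CPM in ko saline, against 82.96, 82.9 and 86.0 CPM in wt CL and 82.4, 82.1 and 92.8 CPM in wt saline. The ko CL libraries stood far below all of the others, and the ko saline libraries lay just below those of both wt groups. Under saline the log2 difference of ko against wt was -0.15 ± 0.06 and not called (edgeR, adjusted p = 0.098). Insig2 fell by 0.59 ± 0.06 under CL in ko (edgeR, adjusted p = 3.03e-06), and its log2 change in wt was -0.03 ± 0.06 (adjusted p = 0.721). The difference was -0.56 ± 0.08 (adjusted p = 0.000147).

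The genes for SREBP-2 itself and for its escort moved little. Srebf2 had 36.3, 36.5 and 39.2 CPM in ko CL and 35.3, 42.2 and 44.3 CPM in ko saline, against 38.1, 37.2 and 37.7 CPM in wt CL and 46.4, 46.8 and 43.8 CPM in wt saline. The ko groups overlapped, and the wt CL libraries lay below those of wt saline. Srebf2 fell by 0.28 ± 0.08 under CL in wt (edgeR, adjusted p = 0.0146), its log2 change in ko was -0.12 ± 0.08 (adjusted p = 0.204), and the difference of 0.16 ± 0.11 was not called (adjusted p = 0.274). In ko the fall was called without ko saline replicate 1 (-0.25), with upper-quartile scaling (-0.25) and with library size alone (-0.21). With those 2 scalings the median log2 change of all genes in ko was -0.14 and -0.10. The level of Srebf2 mRNA thus moved the other way from the synthesis genes in wt fat. Scap ranged from 32.2 to 41.3 CPM over all 12 libraries and was called in none of the 5 comparisons.

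The first part of the pathway turns acetyl-CoA into the isoprenoids from which squalene is made. Of its 9 genes, 6 fell and none rose under CL in ko, 7 rose and none fell in wt, and 8 had a difference between the responses below 0, where 27.5%, 19.6% and 23.6% of all genes were called in those directions. Their median log2 change was -0.34 in ko and 1.34 in wt.

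Hmgcs1 encodes the cytosolic HMG-CoA synthase (GRCm38 chromosome 13, 119690379 to 119708260, plus strand) and had the highest level per kilobase of exon of the 20 synthesis genes in ko CL, ko saline, wt CL and wt saline, at 65.4, 100.8, 198 and 74.1 CPM per kilobase. It stood at 272, 267 and 362 CPM in ko CL and 419, 514 and 457 CPM in ko saline, against 789, 946 and 990 CPM in wt CL and 462, 328 and 231 CPM in wt saline. The wt saline libraries were the most spread, and no ko CL library reached the ko saline range. Hmgcs1 fell by 0.63 ± 0.20 under CL in ko (edgeR, adjusted p = 0.0191) and rose by 1.42 ± 0.21 in wt (adjusted p = 0.000185), with a difference of -2.04 ± 0.29 (adjusted p = 0.000101). The fall in ko was no longer called without ko saline replicate 2 (-0.57), ko CL replicate 1 (-0.58) or ko CL replicate 2 (-0.57).

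Acat2 encodes the cytosolic thiolase that joins 2 acetyl-CoA units. It had 65.9, 88.5 and 102 CPM in ko CL and 131, 104 and 121 CPM in ko saline, against 320, 300 and 377 CPM in wt CL and 111, 120 and 101 CPM in wt saline. The wt CL libraries stood above all others, and the ko CL libraries lay just below those of ko saline. Acat2 fell by 0.47 ± 0.14 in ko (edgeR, adjusted p = 0.0137), rose by 1.59 ± 0.15 in wt (adjusted p = 7.1e-06) and differed in response by -2.06 ± 0.20 (adjusted p = 5.56e-06).

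Pmvk, the kinase that adds the second phosphate to mevalonate, stood at 46.7, 60.2 and 66.6 CPM in ko CL and 70.2, 66.2 and 83.3 CPM in ko saline, against 255, 233 and 289 CPM in wt CL and 116, 109 and 113 CPM in wt saline. The 2 ko groups overlapped in 1 library each, and both lay below wt saline. Pmvk fell by 0.34 ± 0.12 in ko (edgeR, adjusted p = 0.0325), a call lost without ko saline replicate 3 (-0.27) or ko CL replicate 1 (-0.24) and with only the groups compared (-0.35), and rose by 1.20 ± 0.12 in wt (adjusted p = 1.51e-05).

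Idi1, the isomerase that readies isopentenyl diphosphate for chain building, had 6.97, 6.28 and 9.53 CPM in ko CL and 12.4, 11.9 and 12.6 CPM in ko saline, against 27.2, 27.9 and 37.4 CPM in wt CL and 12.8, 13.3 and 10.5 CPM in wt saline. The saline groups overlapped, the ko CL libraries lay below both of them and the wt CL libraries above. Idi1 fell by 0.71 ± 0.16 in ko (edgeR, adjusted p = 0.00246), rose by 1.34 ± 0.16 in wt (adjusted p = 3.58e-05) and differed in response by -2.05 ± 0.22 (adjusted p = 1.31e-05).

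The remaining 5 genes of this stretch varied more. Mvd, which decarboxylates mevalonate diphosphate, rose by 2.15 ± 0.15 in wt (edgeR, adjusted p = 1.32e-06), and its change of 0.33 ± 0.15 in ko was not called (adjusted p = 0.0917) but was called without ko saline replicate 3 (0.47) or ko CL replicate 2 (0.42). Aacs, which activates acetoacetate for synthesis, rose by 1.30 in wt. Mvk, the first mevalonate kinase, and Ggps1, which makes the geranylgeranyl diphosphate used to anchor proteins and not sterols, were the 2 synthesis genes not called in wt, at -0.01 ± 0.12 (adjusted p = 0.963) and 0.11 ± 0.07 (adjusted p = 0.269). Both were called lower under CL in ko, Ggps1 by 0.48 and Mvk by 0.32 on the log2 scale. The Mvk call was lost without any 1 of 7 libraries, at -0.34 to -0.23, and with only the groups compared, at -0.33. Fdps, which makes farnesyl diphosphate, had only 192 counts over all 12 libraries and shares 26.7% of its exon bases with Gm43738 on the same strand, so that reads from it may not have been assigned. Its rise in wt was 2.19 ± 0.38 (edgeR, adjusted p = 0.00074), and its level is uncertain.

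**Figure D2:**
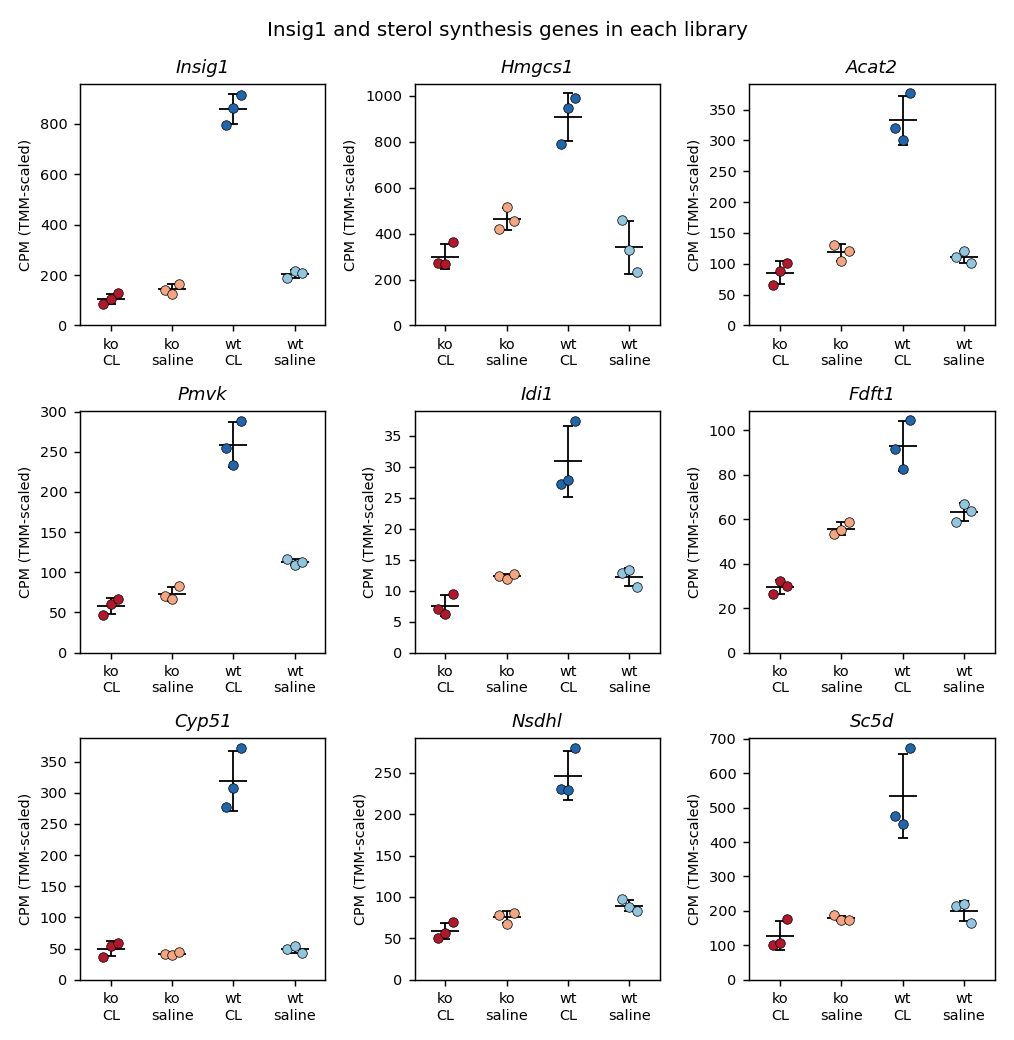
CPM in each library of Insig1 and of 8 synthesis genes in ko CL, ko saline, wt CL and wt saline; points are libraries, and bars give the mean and SD of 3. In each panel the 3 wt CL libraries stand above all others, as for Cyp51 at 277 to 371 CPM. Most of the 8 genes were chosen by a small p for the difference between the CL responses, which uses the same libraries.

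The second part of the pathway runs from squalene to cholesterol. All 11 of its genes rose under CL in wt, 4 fell and none rose in ko, and all 11 had a difference between the responses below 0, beside the same shares of all genes, of which 27.5% fell in ko. Their median log2 change was -0.29 in ko and 1.18 in wt.

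Cyp51, the sterol demethylase that acts on lanosterol, showed the largest rise of the 30 genes in wt (GRCm38 chromosome 5, 4081145 to 4104746, minus strand). It stood at 36.8, 53.6 and 59.6 CPM in ko CL and 41.7, 39.4 and 45.3 CPM in ko saline, against 277, 307 and 371 CPM in wt CL and 49.0, 54.6 and 42.4 CPM in wt saline. The wt CL libraries stood far above the other 9, which overlapped. Cyp51 rose by 2.71 ± 0.16 in wt (edgeR, adjusted p = 5.23e-07), and its log2 change in ko was 0.24 ± 0.16 (adjusted p = 0.213). It was called higher in ko without ko CL replicate 1, at 0.40. The difference between the responses was -2.47 ± 0.23 (adjusted p = 2.88e-06). Akap9 lies on the opposite strand over part of Cyp51, and the counting was by strand.

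Fdft1, the squalene synthase that commits isoprenoids to sterols, fell furthest of the synthesis genes in ko. It stood at 26.4, 32.2 and 30.1 CPM in ko CL and 53.5, 55.1 and 58.9 CPM in ko saline, against 91.6, 82.5 and 105 CPM in wt CL and 58.9, 67.0 and 63.9 CPM in wt saline. The ko CL libraries lay well below all others and the wt CL libraries well above. Fdft1 fell by 0.92 ± 0.10 in ko (edgeR, adjusted p = 4.8e-06), rose by 0.56 ± 0.09 in wt (adjusted p = 0.000562) and differed in response by -1.47 ± 0.13 (adjusted p = 2.82e-06). Ctsb, which encodes a lysosomal protease and is on the list of lipid-associated macrophage markers, overlaps Fdft1 on the opposite strand.

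Nsdhl, which removes carboxyl groups from the sterol ring, had 50.5, 56.0 and 70.3 CPM in ko CL and 78.0, 67.6 and 81.0 CPM in ko saline, against 230, 230 and 280 CPM in wt CL and 97.0, 88.3 and 83.6 CPM in wt saline. The ko groups overlapped, and the wt CL libraries were the highest. Nsdhl rose by 1.46 ± 0.12 in wt (edgeR, adjusted p = 3.82e-06). Its fall by 0.36 ± 0.12 in ko (adjusted p = 0.0235) was no longer called without ko saline replicate 3 (-0.34), ko CL replicate 1 (-0.29) or ko CL replicate 2 (-0.35).

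Sc5d, the sterol desaturase near the end of the pathway, had 100.5, 108 and 177 CPM in ko CL and 187, 173 and 174 CPM in ko saline, against 474, 452 and 673 CPM in wt CL and 213, 221 and 165 CPM in wt saline. One ko CL library reached the ko saline range. Sc5d rose by 1.42 ± 0.20 in wt (edgeR, adjusted p = 0.000173), and its change in ko of -0.47 ± 0.20 was not called (adjusted p = 0.0637). It was called lower in ko without ko CL replicate 3, at -0.81, or without wt CL replicate 3, at -0.47. The fall was also called with library size alone (-0.56), upper-quartile scaling (-0.60) and no filter on low counts (-0.50).

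Of the remaining 7 genes, Sqle and Msmo1 were called lower under CL in ko, by 0.44 and 0.36 on the log2 scale. Sqle encodes the squalene epoxidase, a rate-limiting step, and Msmo1 a sterol methyl oxidase. The Sqle call was lost without any 1 of 8 libraries, at -0.51 to -0.33, and with only the groups compared, at -0.46. Lss, which closes the sterol ring, rose by 1.66 in wt, and Dhcr7, the last reductase of the pathway, by 1.18. Ebp, a sterol isomerase, rose least of these 7 in wt, by 0.57, and its libraries in ko CL, ko saline and wt saline averaged 47.2 ± 0.998, 47.9 ± 0.684 and 47.6 ± 1.66 CPM (SD, n = 3 each). The sterol carrier Stard4 ranged from 22.0 to 33.6 CPM over the 12 libraries and was called in none of the 5 comparisons.

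Stretches upstream of the start of 4 of these genes, and of Abca1 from the LXR side, are shown as examples and not as typical of the members. SREBP-2 acts at sterol regulatory elements together with the CCAAT-binding factor NF-Y. The sequences are RefSeq promoter windows on GRCm38.p6, 5′ to 3′ on the strand of the gene, and end before the transcript begins in both annotations used. Capitals mark the sterol regulatory element core TCACNCCAC, CCAAT boxes (CCAAT, or ATTGG where the box is on the other strand) and E-boxes (CACGTG). The matches marked do not overlap each other. Only the Hmgcs1 stretch holds the core, and an E-box is marked in Sc5d, Insig1 and also Abca1. Mylip, of the LXR side and not shown, has a CCAAT box in its window. The windows are Hmgcs1 at chr13:119690101-119690350 (plus strand), Nsdhl at chrX:72918271-72918520 (plus strand), Sc5d at chr9:42264301-42264550 (minus strand), Insig1 at chr5:28071162-28071362 (plus strand) and Abca1 at chr4:53159896-53160145 (minus strand).
Hmgcs1: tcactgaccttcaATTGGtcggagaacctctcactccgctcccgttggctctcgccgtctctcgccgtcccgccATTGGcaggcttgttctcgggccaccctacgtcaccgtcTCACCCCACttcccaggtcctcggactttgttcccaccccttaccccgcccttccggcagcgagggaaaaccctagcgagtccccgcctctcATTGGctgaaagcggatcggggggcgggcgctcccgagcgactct
Nsdhl: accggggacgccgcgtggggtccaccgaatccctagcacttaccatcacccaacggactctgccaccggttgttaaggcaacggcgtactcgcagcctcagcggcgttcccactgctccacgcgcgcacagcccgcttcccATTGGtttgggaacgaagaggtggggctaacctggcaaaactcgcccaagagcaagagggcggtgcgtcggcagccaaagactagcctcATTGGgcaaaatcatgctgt
Sc5d: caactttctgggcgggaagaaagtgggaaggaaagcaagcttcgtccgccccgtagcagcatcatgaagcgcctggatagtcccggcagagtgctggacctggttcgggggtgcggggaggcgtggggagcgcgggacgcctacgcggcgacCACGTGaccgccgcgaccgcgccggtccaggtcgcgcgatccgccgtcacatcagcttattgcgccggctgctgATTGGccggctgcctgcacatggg
Insig1: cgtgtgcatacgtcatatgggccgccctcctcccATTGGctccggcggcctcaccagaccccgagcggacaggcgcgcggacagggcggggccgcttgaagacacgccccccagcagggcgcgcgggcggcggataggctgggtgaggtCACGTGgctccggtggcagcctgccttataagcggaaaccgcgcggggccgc
Abca1: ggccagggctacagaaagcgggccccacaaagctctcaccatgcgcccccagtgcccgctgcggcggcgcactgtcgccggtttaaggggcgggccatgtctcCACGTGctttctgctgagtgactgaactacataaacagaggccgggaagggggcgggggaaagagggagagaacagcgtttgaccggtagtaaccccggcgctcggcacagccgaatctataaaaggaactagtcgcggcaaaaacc

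In full windows from 250 bases before to 50 bases after the start, matched on both strands for the 25 members with a window in the table, a CCAAT box was present for 19 of 25, among them 15 of 17 synthesis genes and 1 of 4 LXR-side genes. Over all genes with a window, 41.1% held one. The GC box GGGCGG, known as a site of Sp1, was present for 20 of 25, beside 38.2% of all genes and 63.6% of the genes tested here. The E-box was present for 6 of 25, beside 8.1% of all genes. The exact core TCACNCCAC was found only for Hmgcs1 among the members, beside 1.4% of all genes. A longer LXR element was searched too and found for 0 of 25, beside 4 of all 27025 genes with a window. So rare a match cannot show whether LXR sites are present, in Abca1 or elsewhere. These are matches of letters and not measured sites. Fdps, Fdft1, Sqle, Stard4 and Abcg1 were not searched.

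Under CL, the ko and wt groups were furthest apart. All 20 synthesis genes were lower in ko CL than in wt CL, from -0.42 for Ggps1 to -2.67 for Cyp51 on the log2 scale, and Insig1 was lower by 3.02 ± 0.14 on that scale (edgeR, adjusted p = 2.88e-09). Abcg1, Abca1 and Mylip were higher. Of the 30 genes 3 were called higher and 23 lower, where 27.6% of all genes were called higher and 29.3% lower (56.8% in either direction), with a median log2 difference of -1.29 for the 30 and 0.00 for all genes. Among the synthesis genes, Pmvk differed by -2.16 ± 0.13 (edgeR, adjusted p = 2.08e-08), Lss by -2.12, Nsdhl by -2.07 ± 0.12 (adjusted p = 2.58e-08) and Sc5d by -2.05 ± 0.21 (adjusted p = 2.59e-06). With library size alone as the scaling, the calls of Mvk and Ggps1 were lost. No library of ko CL reached the wt CL range for Insig1 or for any of the 8 synthesis genes plotted by library. Most of these 8 were chosen by a small p for the difference between the CL responses. That difference uses the same libraries, so the choice favoured such a separation, and its share among all genes was not counted.

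Under saline the share of the genes called between the genotypes was near that of all genes. Msmo1 was called higher in ko saline than in wt saline, and Insig1, Pmvk and Nr1h2 lower. Thus 1 of the 30 genes was higher and 3 were lower. Of all genes 7.99% were called higher and 6.45% lower (14.4% in either direction). The median log2 difference was -0.09 for the 30 genes and -0.01 for all genes. Pmvk was lower by 0.62 ± 0.12 on the log2 scale (edgeR, adjusted p = 0.00656), with no overlap between the groups. Insig1 was lower by 0.51 ± 0.13 (adjusted p = 0.0224), again without overlap, but the call was lost without wt saline replicate 2 (-0.46) or 3 (-0.50), without ko saline replicate 1 (-0.48) or 2 (-0.42), or with library size alone (-0.35). Msmo1 was higher by 0.35 ± 0.10 (adjusted p = 0.0356), and this call was lost without any 1 of 5 of the 6 saline libraries, at 0.31 to 0.36. Hmgcs1 was at 0.45 ± 0.20 and not called (adjusted p = 0.162), but was called without wt saline replicate 1, at 0.73 (adjusted p = 0.015).

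**Figure D3:**
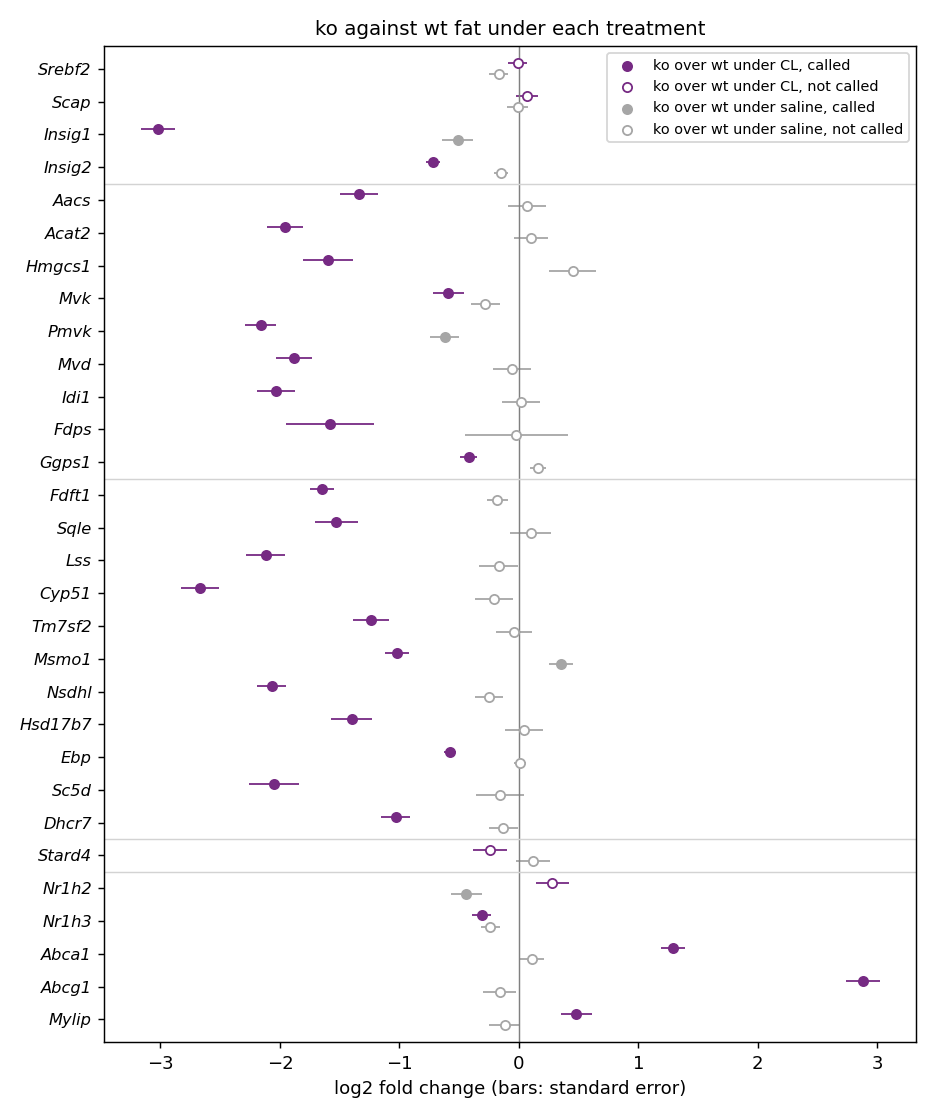
Log2 fold change of each of the 30 genes in ko against wt fat under CL and under saline, with bars for the standard error; filled points passed the adjusted threshold. Under CL the synthesis genes lie from -0.42 to -2.67 and Insig1 at -3.02, while under saline all 30 lie between -0.62 and 0.45.

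Markers of fat cells were also lower in ko than in wt fat. The 15 adipocyte markers, among them Adipoq, Plin1 and Fabp4, summed to 20660 to 26740 CPM in ko CL and 33910 to 35460 CPM in ko saline, against 53630 to 59150 CPM in wt CL and 50130 to 52640 CPM in wt saline. All 15 were lower in ko CL than in wt CL, with a median log2 difference of -1.32, and 10 were lower and none higher in ko saline than in wt saline. Of all genes 29.3% were called lower in ko under CL and 6.45% under saline. In such bulk samples, fewer cells of a type and less RNA per cell cannot be told apart. Per 1000 CPM of adipocyte markers, the synthesis genes summed to 44.2 to 54.6 CPM in ko CL and 45.3 to 46.3 CPM in ko saline, against 62.3 to 82.7 CPM in wt CL and 25.6 to 32.6 CPM in wt saline. On that scale the ko CL libraries enclosed the ko saline range and lay below those of wt CL, and ko saline lay above wt saline. The part of the markers in the results was not tested.

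**Figure D4:**
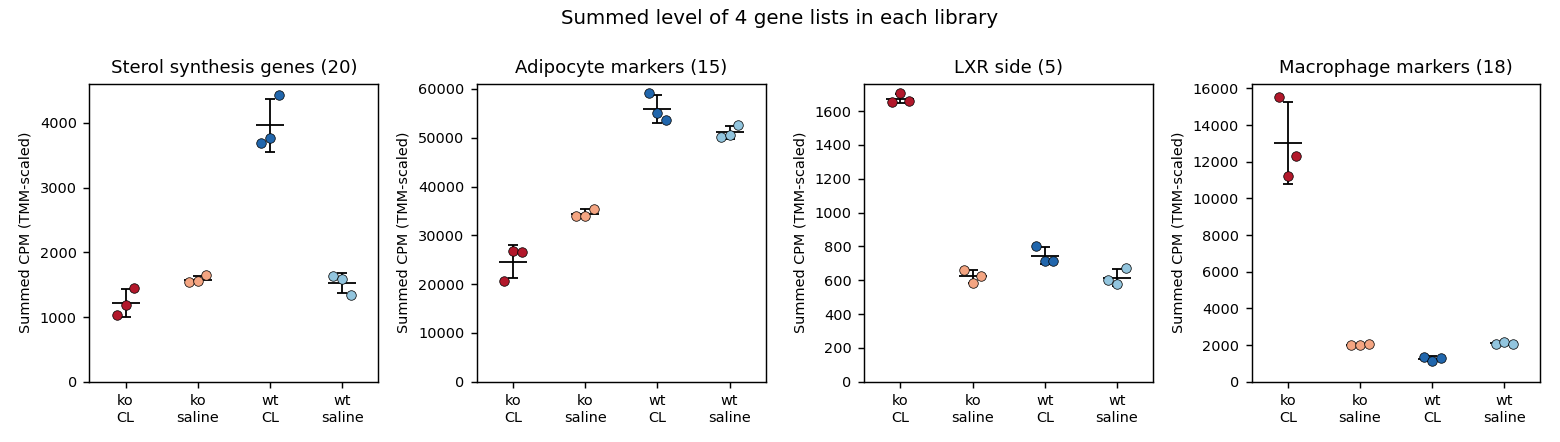
Summed CPM in each library of the 20 synthesis genes, 15 adipocyte markers, 5 LXR-side genes and 18 macrophage markers in ko CL, ko saline, wt CL and wt saline; points are libraries, and bars give the mean and SD of 3. The synthesis sum stands out in wt CL, at 3686 to 4434 CPM, and the LXR-side and macrophage sums stand out in ko CL. The LXR-side sum is mostly Abca1, which averaged 1259 of 1673 CPM in ko CL.

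The LXR side moved the other way from synthesis in ko fat. Under CL 4 of its 5 genes rose in ko and none fell, and 3 rose and 1 fell in wt. The difference between the responses was above 0 for 4, Abcg1, Abca1, Nr1h2 and Mylip. Of all genes 27.2% rose in ko, 19.6% rose in wt and 21.8% had a difference above 0.

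Abcg1, which exports cholesterol to high-density lipoprotein, had the largest change of the 30 genes in ko (GRCm38 chromosome 17, 31057675 to 31117988, plus strand). It stood at 242, 190 and 201 CPM in ko CL and 15.99, 22.4 and 19.0 CPM in ko saline, against 32.9, 25.9 and 27.2 CPM in wt CL and 21.4, 23.9 and 19.0 CPM in wt saline. Only the ko CL libraries were high, with no overlap. Abcg1 rose by 3.46 ± 0.14 in ko (edgeR, adjusted p = 3.16e-09), and by 0.42 ± 0.14 in wt (adjusted p = 0.0311), with a difference of 3.04 ± 0.19 (adjusted p = 1.58e-07). The call in wt was lost without wt saline replicate 1 (0.40) or 3 (0.34), wt CL replicate 1 (0.31) or 3 (0.46), or ko saline replicate 3 (0.40), and with library size alone (0.10, adjusted p = 0.545).

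Abca1, which exports cholesterol to lipid-poor apolipoproteins (GRCm38 chromosome 4, 53030787 to 53159895, minus strand), had 1222, 1300 and 1256 CPM in ko CL and 522, 420 and 464 CPM in ko saline, against 561, 487 and 497 CPM in wt CL and 423, 397 and 482 CPM in wt saline. The ko CL libraries again stood alone. Abca1 rose by 1.43 ± 0.10 in ko (edgeR, adjusted p = 1.26e-07), and its log2 change in wt was 0.25 ± 0.10 (adjusted p = 0.0659), with a difference of 1.18 ± 0.14 (adjusted p = 2.48e-05). In wt it was called without wt saline replicate 3 (0.33) and by DESeq2 (0.23, adjusted p = 0.0472), and it was at -0.07 with library size alone.

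Mylip stood at 69.2, 77.0 and 74.5 CPM in ko CL and 31.7, 35.8 and 33.2 CPM in ko saline, against 46.0, 57.4 and 54.6 CPM in wt CL and 31.5, 32.0 and 45.8 CPM in wt saline. It was highest in ko CL, and the lowest wt CL library lay just above the highest wt saline library. Mylip rose by 1.13 ± 0.13 in ko (edgeR, adjusted p = 9.31e-06) and by 0.53 ± 0.13 in wt (adjusted p = 0.00635), with a difference of 0.60 ± 0.18 (adjusted p = 0.0159). With library size alone the change in wt was 0.22 and not called.

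The receptors themselves moved less than the exporters. Nr1h3 (LXR alpha, the form typical of fat, liver and macrophages) had 93.5, 107 and 105 CPM in ko CL and 71.2, 83.8 and 84.8 CPM in ko saline, against 138, 123 and 116 CPM in wt CL and 96.3, 92.03 and 94.7 CPM in wt saline. CL libraries were above saline ones in both genotypes. Nr1h3 rose by 0.35 ± 0.08 in ko (edgeR, adjusted p = 0.00353) and by 0.42 ± 0.08 in wt (adjusted p = 0.00189), and the difference of -0.07 ± 0.12 was not called (adjusted p = 0.669). With library size alone the change in wt was 0.10 and not called. Nr1h2 (LXR beta, present in most cells) had 27.7, 29.99 and 24.2 CPM in ko CL and 17.7, 21.8 and 25.8 CPM in ko saline, against 25.7, 23.0 and 18.9 CPM in wt CL and 28.8, 30.3 and 29.8 CPM in wt saline. The ko groups overlapped, and wt CL lay below wt saline. Its change was 0.33 ± 0.13 in ko (edgeR, adjusted p = 0.0526) and -0.40 ± 0.14 in wt (adjusted p = 0.0353), with a difference of 0.72 ± 0.19 (adjusted p = 0.00746). The call in wt was lost without any 1 of 5 of the 6 wt libraries, at -0.43 to -0.28, and a rise in ko was called without ko saline replicate 3 (0.44), wt CL replicate 1 (0.33) or wt CL replicate 3 (0.33).

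**Figure D5:**
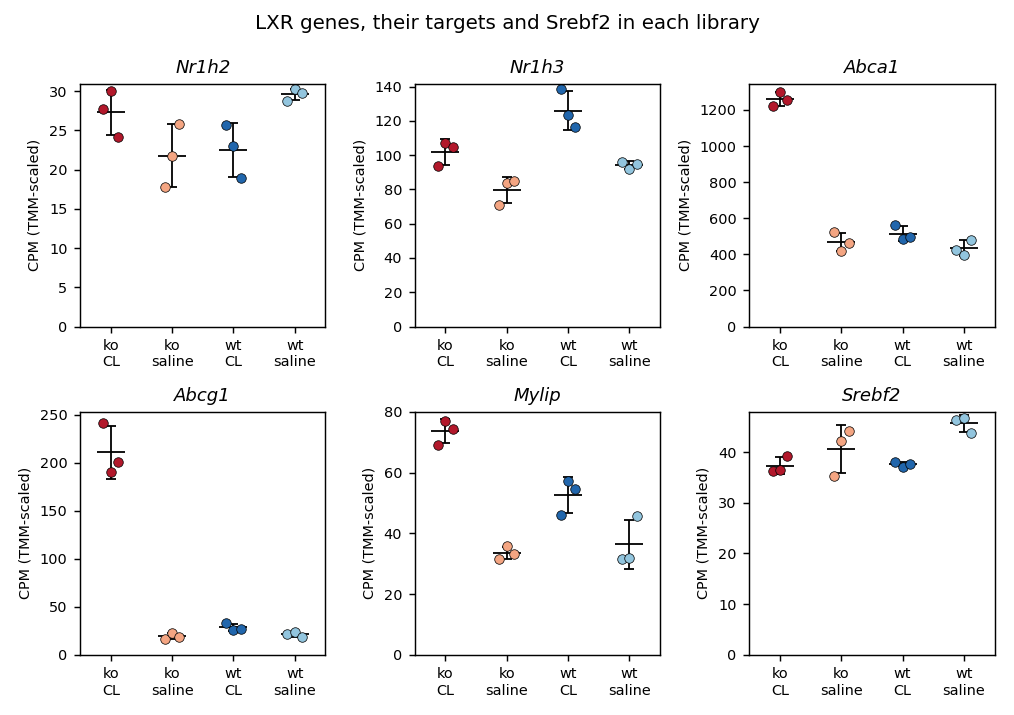
CPM in each library of the 5 LXR-side genes and of Srebf2 in ko CL, ko saline, wt CL and wt saline; points are libraries, and bars give the mean and SD of 3. Abcg1, at 190 to 242 CPM, and Abca1, at 1222 to 1300 CPM, are high only in ko CL, and Srebf2 ranges from 35.3 to 46.8 CPM.

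Between genotypes under CL, Abcg1 was higher in ko by 2.88 ± 0.14 on the log2 scale (edgeR, adjusted p = 3.77e-09), Abca1 by 1.29 ± 0.10 (adjusted p = 2.3e-07) and Mylip by 0.48 ± 0.13 (adjusted p = 0.00562). Nr1h3 was lower in ko by 0.31 ± 0.08 (adjusted p = 0.00713), a difference that turned to 0.08 with library size alone. Under saline none of the 3 targets was called, with log2 differences of -0.16, 0.11 and -0.12, and Nr1h2 was lower in ko by 0.44 ± 0.13 (adjusted p = 0.0425). That call was lost without any 1 of 6 libraries, at -0.46 to -0.31.

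In ko fat, macrophage markers rose under CL as Abca1 and Abcg1 did, whereas in wt fat they fell. The 18 macrophage markers summed to 11200 to 15540 CPM in ko CL and 1994 to 2068 CPM in ko saline, against 1132 to 1359 CPM in wt CL and 2052 to 2159 CPM in wt saline. Under CL 16 of the 18 rose in ko, among them Adgre1 and Cd68, and Cd163 and Lyve1, markers of resident macrophages, fell. In wt 15 fell and none rose. Of all genes 27.2% rose under CL in ko and 17.1% fell under CL in wt. None of the 18 was at 0 in any library. Per 1000 CPM of these markers, Abcg1 stood at 15.6 to 17 CPM in ko CL and 8.0 to 11.2 CPM in ko saline, against 20.8 to 24.2 CPM in wt CL and 9.2 to 11.1 CPM in wt saline. On the same scale Abca1 stood at 78.6 to 116 CPM in ko CL and 211 to 261 CPM in ko saline, against 381 to 430 CPM in wt CL and 184 to 233 CPM in wt saline. Relative to the markers, both genes were thus highest in wt CL, where the marker sum was lowest. Abca1 was lowest in ko CL, whereas Abcg1 was higher in ko CL than in ko saline. The part of the macrophage markers in the results was not tested.

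A wider set of 53 sterol genes outside the 30 was examined, of which 51 could be tested and Rnf139 and Hsd3b7 had no counts. Under CL 22 rose and 10 fell in ko, where 27.2% of all genes rose and 27.5% fell, and 14 rose and 7 fell in wt, where 19.6% rose and 17.1% fell. The difference between the responses was above 0 for 17 and below 0 for 15, beside 21.8% and 23.6% of all genes. Their median log2 change was 0.19 in ko and -0.01 in wt, beside -0.33 and 1.27 for the 20 synthesis genes.

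Among 15 tested genes of synthesis and SREBP processing, 4 rose and 4 fell in ko under CL, close to the shares of all genes. In wt 6 rose and 2 fell, where 19.6% of all genes rose and 17.1% fell. Hsd17b12, a ketoacyl reductase of fatty acid elongation, rose by 1.64 ± 0.11 in wt (edgeR, adjusted p = 9.02e-07) and was at 0.19 ± 0.11 in ko (adjusted p = 0.153). Acat1, the mitochondrial thiolase, fell by 0.49 in ko and rose by 1.04 in wt, and Cyb5r3, which passes electrons to sterol and fatty acid desaturases, fell by 0.28 in ko and rose by 0.30 in wt. Erlin1, a membrane protein that takes part in the degradation of sterol-regulated proteins, went the other way, with 0.23 in ko and -0.35 in wt, both called.

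Among 21 genes of uptake, lysosomal release and esterification, 10 rose and 5 fell in ko under CL, and 5 rose and 2 fell in wt. Of all genes 27.2% rose and 27.5% fell in ko, and 19.6% rose and 17.1% fell in wt. Soat1, which stores cholesterol as esters, stood at 190 ± 42.5 CPM in ko CL and 17.7 ± 1.25 CPM in ko saline, against 11.8 ± 1.95 CPM in wt CL and 15.7 ± 1.77 CPM in wt saline (SD, n = 3 each). Nceh1, a hydrolase of such esters, stood at 173 ± 54.1 CPM in ko CL and 12.4 ± 0.461 CPM in ko saline, and Lipa, the lysosomal acid lipase, at 797 ± 226 and 105 ± 6.27 CPM. The log2 rises in ko were 3.42 ± 0.16 for Soat1, 3.81 ± 0.19 for Nceh1 and 2.92 ± 0.16 for Lipa (edgeR, adjusted p = 5.27e-09, 8.17e-09 and 1.58e-08), and none of the 3 was called in wt. Npc1, which moves cholesterol out of lysosomes, rose by 1.24 in ko and was not called in wt (-0.10). Lrp1, a receptor that takes up lipoprotein remnants, rose by 1.35 in ko and fell by 0.86 in wt. Most macrophage markers rose in the same libraries, and their part in the rises of these genes was not tested.

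Among 15 tested LXR targets and genes of efflux and oxysterols, 8 rose and 1 fell in ko under CL, and 3 rose and 3 fell in wt. Of all genes 27.2% rose and 27.5% fell in ko, and 19.6% rose and 17.1% fell in wt, so that the wt counts were near those shares. Pltp, the phospholipid transfer protein, rose by 2.61 ± 0.13 in ko (edgeR, adjusted p = 8.17e-09) and was at -0.18 ± 0.12 in wt (adjusted p = 0.265). Cyp27a1, which makes an oxysterol, rose by 0.53 in ko and fell by 0.65 in wt, and Abca7 rose by 0.64 in ko and was not called in wt (0.19). Abcg4 fell by 1.30 in wt and was at -0.10 in ko, at 1.84 to 4.55 CPM on average per group. Lpcat3, an LXR target that remodels phospholipids, did not follow Abcg1, with a rise of 0.65 in ko and of 1.56 in wt and a difference of -0.90 ± 0.14 (adjusted p = 0.000162). Srebf1, named after its values were seen because it is both an LXR target and the sister gene of Srebf2, rose by 1.07 ± 0.21 in ko (edgeR, adjusted p = 0.00101) and by 1.24 ± 0.21 in wt (adjusted p = 0.000681), and the difference of -0.17 ± 0.30 was not called (adjusted p = 0.676).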

How the data were processed

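The deposited files hold raw gene counts, produced by the authors from reads aligned to GRCm38. The submitters' processing notes name STAR and HTSeq. Neither their versions nor the gene annotation is given in the sources used here, and the file names state reverse-strand counting. Summary lines for unassigned reads (12.45% to 17.23% of a library) were left out. Symbols and coordinates came from GENCODE M21 (53274 of 53379 identifiers), and promoter sequences from RefSeq (GRCm38.p6, 25 of 30 genes).

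Counts were filtered with filterByExpr (minimum count 10), scaled by TMM and tested by the quasi-likelihood F test (edgeR 4.0.16, R 4.3.3). All 12 libraries entered 1 model with a mean per group and 8 residual degrees of freedom, and p-values were adjusted by Benjamini-Hochberg over 16554 genes. Each standard error was obtained by dividing the size of the log2 change by the root of its F statistic, and levels are TMM-scaled CPM with the SD. The 12 within-group pairs differed beyond sampling noise (chi-square per degree of freedom 7.44 to 60.26).

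The members and lists were chosen with earlier results of these data known. Values by library are given for control and LXR-side genes and for the 3 genes of each synthesis stretch with the smallest p for the difference between the CL responses, plus the gene with the highest level per kilobase. Other sterol genes are the 5 of each list chosen by the same p, of which 1 is not reported here. Alternatives were DESeq2 1.42.0, library size alone, upper-quartile scaling, no filter, only the groups compared, a replicate block and each library left out. The scripts were tested on simulated data.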

Additional observations from a re-analysis of the deposited data

Results flagged for a closer look

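Of the 30 genes, 25 responded to CL differently in ko and wt by edgeR's quasi-likelihood test of the difference between the responses, with Benjamini-Hochberg adjustment over all tested genes. Of all genes 45.4% were called in the same comparison, 21.8% above 0 and 23.6% below 0. The values below are the response in ko minus the response in wt on the log2 scale. Among the control genes the difference was -2.51 for Insig1 and -0.56 for Insig2. From acetyl-CoA to isoprenoids it was -1.42 for Aacs, -2.06 for Acat2, -2.04 for Hmgcs1, -1.54 for Pmvk, -1.82 for Mvd, -2.05 for Idi1, -1.56 for Fdps and -0.58 for Ggps1. From squalene to cholesterol it was -1.47 for Fdft1, -1.63 for Sqle, -1.95 for Lss, -2.47 for Cyp51, -1.20 for Tm7sf2, -1.37 for Msmo1, -1.82 for Nsdhl, -1.43 for Hsd17b7, -0.59 for Ebp, -1.89 for Sc5d and -0.90 for Dhcr7. On the LXR side it was 0.72 for Nr1h2, 1.18 for Abca1, 3.04 for Abcg1 and 0.60 for Mylip. For Fdps the difference was not called by DESeq2 (adjusted p = 0.0636), nor when any 1 of 8 libraries was left out, at -1.60 to -1.30. Each library was left out in turn, but groups of 3 libraries are too small to tell an outlying library from ordinary spread.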

How the results depend on the processing

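Without scaling beyond library size, the median log2 change of all genes was -0.10 for CL in ko, -0.33 for CL in wt, 0.39 for ko against wt under CL, 0.15 for ko against wt under saline and 0.20 for the difference between the CL responses, and changes are to be read against these shifts. The members lower under CL in wt then numbered 6, those higher in ko under CL 6, and under saline 3 were higher and 1 lower. All genes called higher and lower then split 1329 to 8048 for CL in wt (9377 in all), 3701 to 5475 for CL in ko, 8667 to 2237 for ko against wt under CL, 3733 to 506 under saline (4239 in all) and 5386 to 2267 for the difference. Directions turned with this scaling for Ggps1 (-0.21) and Abca1 (-0.07) under CL in wt, Srebf2 (0.37) and Nr1h3 (0.08) in ko against wt under CL, Insig2 (0.00) and Mylip (0.04) under saline, and Nr1h3 (0.16) in the difference. With single libraries left out, values near 0 turned for Mvk (-0.12 to 0.06) and Insig2 (-0.08 to 0.03) under CL in wt, Mylip under saline (-0.21 to 0.08), Nr1h3 in the difference (-0.16 to 0.00) and Srebf2 in ko against wt under CL (-0.06 to 0.00, and 0.01 with only the groups compared). With upper-quartile scaling the median log2 change of all genes under CL in ko was -0.14 (3474 higher, 6092 lower). Leaving out each library gave 7 to 14 members lower under CL in ko, 1 to 2 lower under CL in wt, 0 to 1 higher and 1 to 3 lower under saline, and 1065 to 2996 genes called under saline. Deviations from the group means correlated at -0.355 to 0.176 for same-numbered libraries and at -0.416 to 0.366 for differently numbered ones. These gave no sign of pairing by replicate number, but 3 libraries a group are too few to exclude it. A replicate block gave, under CL, 4 members higher and 11 lower in ko, and 22 higher and 1 lower in wt. The alternative without wt saline replicate 1 and ko CL replicate 2 was chosen after seeing the data. The causes were not tested. With 3 pools a group, 8 residual degrees of freedom and 192 counts of Fdps in all, small changes and that gene are the least certain.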
